A study of Rattus norvegicus with 79 samples.

Results

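The comparison set 24-month male Fischer 344 rats that had been trained to find a hidden platform in the water maze and were classed by the submitters as unimpaired learners (13 arrays) against rats of the same strain, sex and age that stayed in their cages (5 arrays). The members were taken from the sample titles, and these 18 arrays, 1 per animal, are part of a series of 79. The other aged groups used here were hidden-platform rats classed as impaired (10 arrays), rats trained with a visible platform (8 arrays) and yoked rats that swam with no platform in the pool (8 arrays). The labels name no treatment but the training; animals lived in pairs and were killed 24 h after the last trial. The sources used here give no rule for classing the learners, and the files used here hold no behavioural score.

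RNA came from a 300 µm punch of the CA1 cell layer cut from 1 mm brain slices, was amplified in 2 rounds and hybridised to a rat oligonucleotide array with 8799 probe sets, of which 59 were controls. A punch holds pyramidal neurons together with interneurons, glia and vessels, so fewer cells of a type and less RNA per cell cannot be told apart. The hidden platform task asks a rat to learn a place from distant cues and depends on the hippocampus. CA1 pyramidal neurons carry the output of the hippocampus, and training engages their immediate early genes, which are transcribed within minutes of strong activity, while slower changes in protein synthesis and metabolism are thought to stabilise memory. Cage controls did not swim, so swimming and learning cannot be told apart in this comparison; the yoked group shares the swimming.

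Tests of array quality found no difference between the groups, but with 5 cage arrays they cannot show that quality was alike. Median Spearman correlation with the other arrays was 0.909 ± 0.040 in unimpaired rats and 0.878 ± 0.064 in cage rats (SD, n = 13 and 5), and an exact two-sided permutation test of the difference gave p = 0.212. The control probe sets at the 3′ end of a message were brighter than those at its 5′ end by a log2 value of 3.44 ± 0.52 in unimpaired rats and 3.70 ± 0.93 in cage rats, a measure of RNA and amplification quality (exact permutation p = 0.458), and the median signal was 136.8 ± 34.5 in unimpaired rats and 140.7 ± 27.2 in cage rats (exact permutation p = 0.758). Adjusted over these 3 tests with Benjamini-Hochberg, the values were 0.635, 0.688 and 0.758. Of the 18 arrays, unimpaired animal 81 (0.785) and cage animal 99 (0.778) correlated with the others at under 0.85, as did 14 of the 79 arrays. Cage animal 98, at 0.852, lay just above that limit. The markers of CA1 were uneven. Hpca, the calcium sensor hippocalcin, had signals of 7328 to 15270 in unimpaired rats and 10861 to 16638 in cage rats, and Nrgn, which encodes the calmodulin-binding neurogranin, 11495 to 25442 in unimpaired rats and 7876 to 37576 in cage rats. Spink8, a CA1 marker, had medians of 11 in unimpaired rats and 11.2 in cage rats, and Camk2a, a kinase of excitatory neurons, 116.7 and 92.6. Both lay below the limit on low signal used here, as did Tdo2, a marker of dentate granule cells, at 3.7 to 39.8 in unimpaired rats and 4 to 47.1 in cage rats. The choroid plexus marker Ttr was uneven, at 330.7 to 5601 in unimpaired rats and 208.5 to 4544 in cage rats.

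Across the 5244 probe sets tested, none passed the adjusted test between unimpaired and cage rats, which does not show that the groups were alike. The genes of the cytosolic ribosome lay lower in unimpaired rats as a group, with a median log2 difference of -0.48 over 38 genes, against 0.04 over all 3233 genes tested. Single genes with a low unadjusted p included the sodium channel gene Scn2a and the mitochondrial aspartate aminotransferase gene Got2 among those higher in unimpaired rats, and the isoprenoid enzyme gene Fdps and the ribosomal protein gene Rpl27a among those lower. The activity-regulated genes Arc, Fos, Egr1 and Bdnf differed from the cage level by -0.15 to 0.11 log2 units, with wide intervals. In limma with Benjamini-Hochberg adjustment the smallest adjusted p was 0.307, and the share of probe sets called was 0%. At an unadjusted p under 0.05 there were 348 probe sets (6.64%; 222 higher and 126 lower in unimpaired rats), against 262.2 that a 5% share would give. Calls did appear with other settings of the same test: 88 probe sets (1.68%) with array quality weights, 11 (0.21%) without the arrays of correlation under 0.85, and 4 (0.0763%) when the 18 arrays were fitted alone. All differences below are in log2(signal + 15), unimpaired minus cage, with the standard error from limma. Each gene is given by its brightest probe set unless another is named. None passed the adjusted test in that fit, but 19 of the named genes did with array quality weights, at adjusted p of 0.00548 to 0.0488 in limma. They were Mllt10, Ptpn3, Cipc, Scn2a, Got2, Hrk, Parp1, Nrxn3, Prdx3 and Lhx2, higher in unimpaired rats, and Fdps, Rpl27a, Rpl36, G0s2, Edf1, Apoc1, Ptgds, Hbb and Hbb-b1, lower. Most named genes were chosen for a small unadjusted p in these same arrays, so these calls are not independent support for them. Of 33 gene lists, 14 kept the sign of their median under every setting run over all animal numbers and with each array left out. Over these settings the ribosomal median ran from -0.55 to -0.38. Within animal numbers 26 to 50 or 76 to 100, several of these 14 turned sign. They were the effector, monoamine receptor, insulin, heat shock, cytoskeletal, CA1, astrocyte and endothelial lists. The ribosomal, oxidative phosphorylation, proteasome, neurotrophin, cyclic AMP and neighbouring field lists kept their sign there. Most medians of the other lists were small and turned sign under at least 1 setting run over all animal numbers or with 1 array left out.

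**Figure D1:**
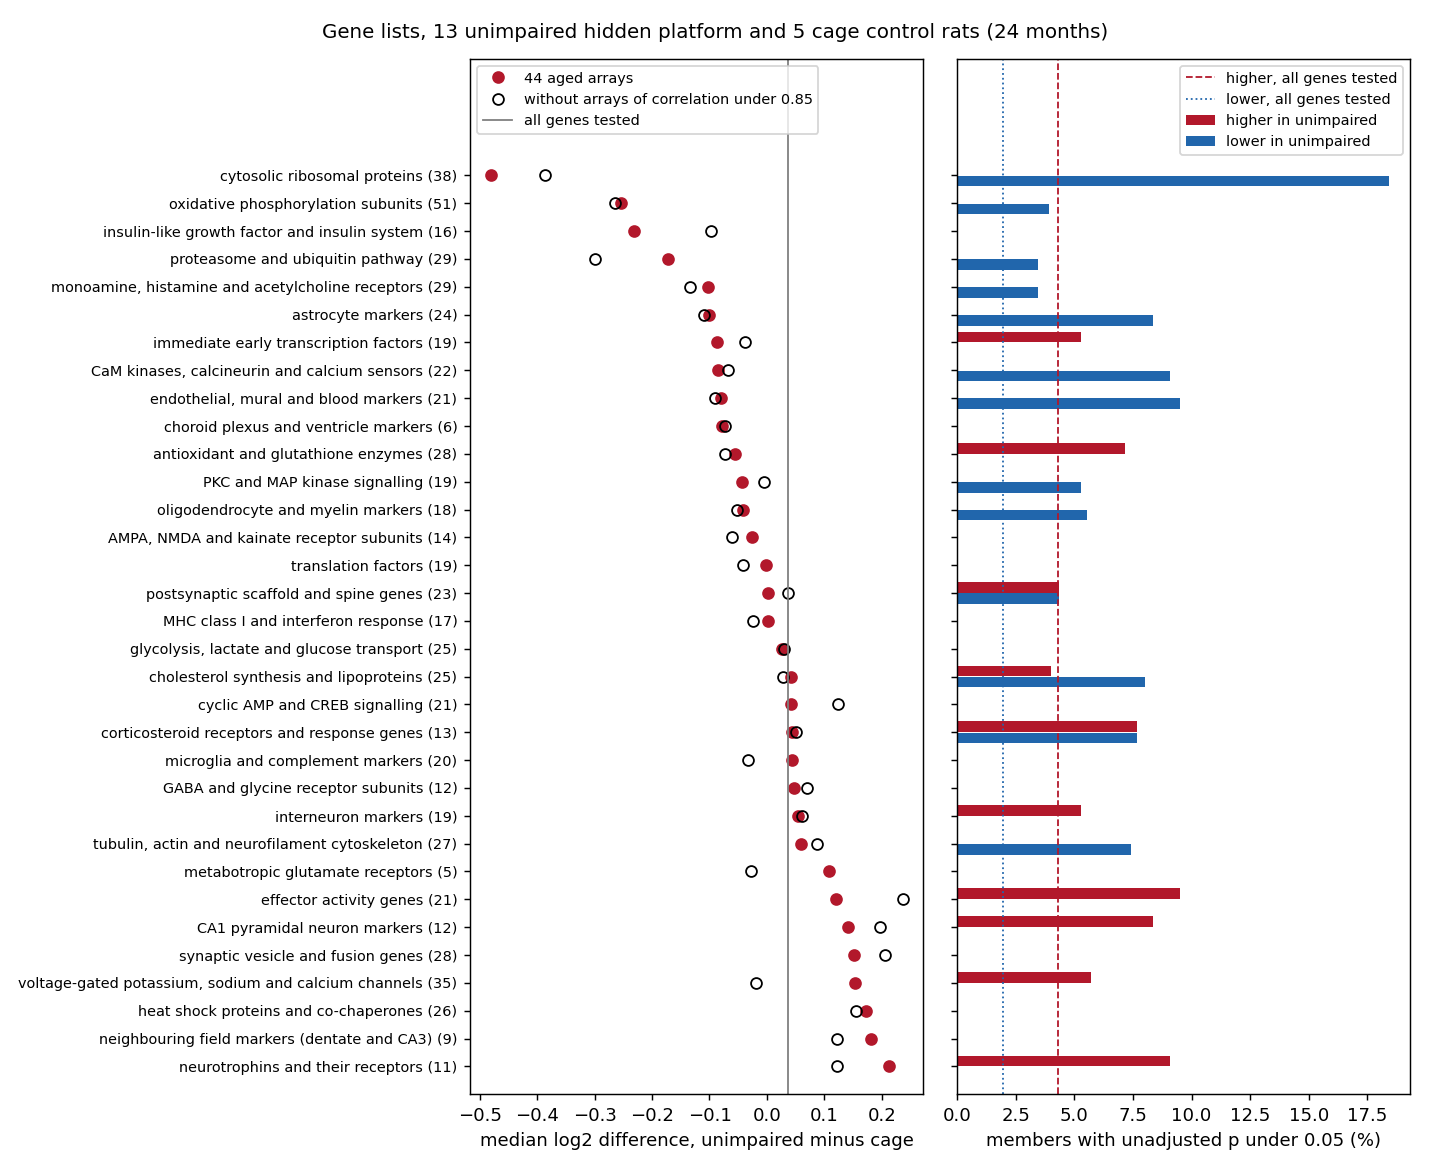
Left, the median log2 difference (unimpaired minus cage) of the members of each gene list, with the number of genes tested in brackets, over the 44 aged arrays (filled) and without arrays of correlation under 0.85 (open); the grey line is the median of all genes tested, 0.04. Right, the percentage of members with an unadjusted p under 0.05, higher or lower in unimpaired rats; the dashed and dotted lines give the same for all genes tested, and 18.4% of ribosomal genes were lower against 1.95% of all genes.

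Ribosomal proteins form the small and the large subunit of the cytosolic ribosome, which translates messenger RNA, and cells make them in matched amounts. Of 39 such genes on the array, 38 passed the limit on low signal. Of these 38, 34 lay lower in unimpaired rats and 4 higher, where 45.8% of all genes lay lower. At an unadjusted p under 0.05, 7 were lower and 0 higher, a share of 18.4% against 1.95% of all genes tested in that direction. All 13 unimpaired arrays were below the cage mean for 15 of the 38 genes (39.5%), as they were for 3.09% of all genes. Large-subunit genes had a median of -0.52 over 25 genes, 24 of them lower, and small-subunit genes a median of -0.34 over 12 genes, 9 of them lower. The remaining gene, Rack1, which encodes a scaffold protein bound to the small subunit, differed by -0.19. The list was chosen with its direction in these data already known, so these counts are a description.

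Rpl36, a large-subunit gene, had the lowest difference of the group. Its signal ran from 575.3 to 3641 with a median of 1483 in the 13 unimpaired rats, and was 3991, 4882, 4527, 4124 and 4252 in cage animals 35, 36, 98, 99 and 100. The groups did not overlap, and the cage arrays lay close together while the unimpaired arrays spread over a wide range. The log2 difference was -1.52 ± 0.56 (SE), with an adjusted p of 0.511 in limma; it was 0.023 with array quality weights, 0.0505 with the 18 arrays alone and 0.0565 without the arrays of low correlation. Rpl27a, also of the large subunit, ran from 2964 to 12609 with a median of 6411 in unimpaired rats and was 10934, 15806, 21392, 18665 and 13685 in the same 5 cage animals. Its groups overlapped at 1 cage array, and its difference was -1.38 ± 0.42 (adjusted p = 0.407 in limma), which passed when only the 18 arrays were fitted and with array quality weights. Rpl41, whose product is a very short basic peptide of the large subunit, ran from 445.2 to 848.1 with a median of 563.5 in unimpaired rats and was 796.6, 1038, 1163, 1324 and 857.3 in cage rats, a difference of -0.76 ± 0.25.

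Every unimpaired array lay below every cage array for 5 of the 3233 genes tested by their brightest probe sets (0.155%), and 3 of the 5 were on the ribosomal list, namely Rpl36, Rpl24 and Rps27l. Rpl24 ran from 1469 to 6263 in unimpaired rats and from 7888 to 10022 in cage rats. Rps27l, a close relative of the small-subunit gene Rps27, ran from 436.3 to 759.5 in unimpaired rats and from 923.2 to 1165 in cage rats. The other members lower at an unadjusted p under 0.05 were Rpl26 (-1.12 ± 0.43) and Rpl35a (-0.93 ± 0.35). At the other end, Rps3, a small-subunit gene with a second role in DNA repair, differed by 0.23, the highest value of the group, and Rps3a, Rps24 and Rplp0 by 0.08, 0.07 and 0.07. Many ribosomal protein genes have near-identical processed pseudogenes, so a probe set can take signal from more than 1 locus.

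Many mammalian ribosomal protein genes start transcription within a run of pyrimidines, and messages that begin so are translated under the control of the mTOR pathway. RefSeq promoters (build GRCr8) were matched for 34 of the 38 genes and searched, on the strand of the gene, for CTTTC or CTTTT within 10 bases either side of the annotated start. The windows of Rpl36 and Rpl24, whose groups did not overlap, of Rpl35a, and of Rpl19, which holds the letters more than once, are shown to let the starts be compared. Each line runs 5′ to 3′ from 60 bases before to 15 bases after the start, and capitals mark the letters found.
Rpl36: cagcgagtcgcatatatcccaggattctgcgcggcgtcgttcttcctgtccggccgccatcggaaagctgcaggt
Rpl24: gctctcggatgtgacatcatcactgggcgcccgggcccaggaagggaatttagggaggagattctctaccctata
Rpl35a: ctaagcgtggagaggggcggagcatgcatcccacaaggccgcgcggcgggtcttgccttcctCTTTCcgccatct
Rpl19: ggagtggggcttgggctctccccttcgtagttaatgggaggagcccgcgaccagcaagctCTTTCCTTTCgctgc
The windows lie at chr9:1533720-1533794 (plus strand), chr11:58128391-58128465 (minus strand), chr11:81235007-81235081 (minus strand) and chr10:83519004-83519078 (plus strand). The letters were found in 12 of the 34 ribosomal windows (35.3%; 2.94% on the opposite strand), in 1 of the 7 genes lower at an unadjusted p under 0.05, and in 3.78% of the 2648 genes tested that had a promoter. Of oxidative phosphorylation genes 2.33% held them, of proteasome and ubiquitin genes 10.7%, of translation factor genes 11.8%, and of all 27457 RefSeq promoters 4.21%. A match describes the letters at an annotated start and nothing about the use of that start in these rats.

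The mean of the 38 genes, set against the mean of the cage arrays, ran from -0.97 to -0.24 log2 units with a median of -0.48 in unimpaired rats and from -0.14 to 0.13 in cage rats, which centre on 0 by construction. No unimpaired array reached the lowest cage array. The same mean over all genes tested ran from -0.10 to 0.21 in unimpaired rats and from -0.08 to 0.05 in cage rats. The authors had scaled all arrays alike, so this all-gene mean cannot show a change in total RNA. The 3 lowest unimpaired values, -0.97, -0.96 and -0.83, belonged to animals 53, 81 and 54, and animal 81 is 1 of the 2 arrays of low correlation. Cage animal 99, the other such array, stood at -0.03. When all 9 of the 44 aged arrays with a correlation under 0.85 were left out, 7 of them in other groups, the median of the 38 genes was -0.39. There 17 were lower and 0 higher at an unadjusted p under 0.05, where 4.14% and 9.22% of all genes were. When each array's 3′ over 5′ control value entered the fit as a covariate, the median was -0.41, and it stayed between -0.52 and -0.43 when each of the 18 arrays was left out in turn. Within animal numbers 26 to 50, the median was -0.49 (3 unimpaired and 2 cage arrays), and within numbers 76 to 100 it was -0.42 (3 and 3 arrays). With array quality weights, 6 of the 38 passed the adjusted test as lower, against 0.433% of all genes. The part of array quality in the difference was otherwise not tested.

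**Figure D2:**
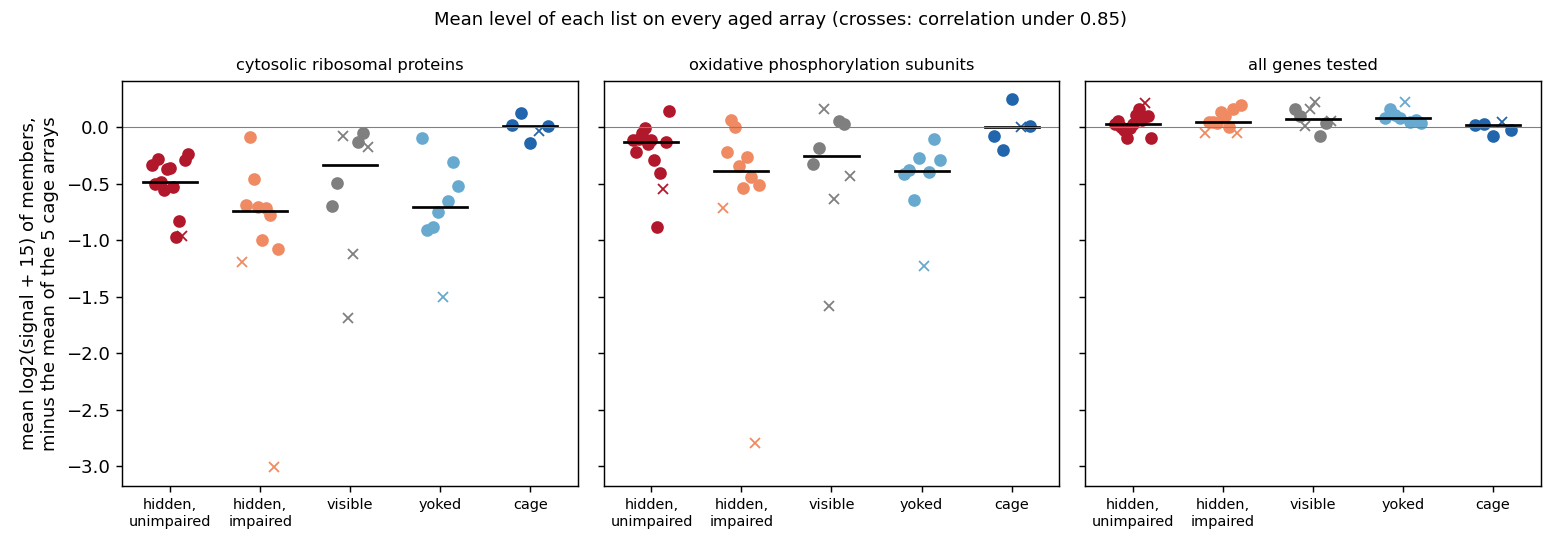
Mean log2(signal + 15) of the members of a list on each aged array, minus the mean of the 5 cage arrays, for cytosolic ribosomal proteins, oxidative phosphorylation subunits and all genes tested; points are arrays, black lines are group medians and crosses are arrays of correlation under 0.85. In the ribosomal panel all 13 unimpaired arrays lie below all 5 cage arrays, and the lowest value of all, -3.01, is an impaired array of low correlation.

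The cage arrays serve as the control of every trained group, so the differences of the other groups from cage are given only side by side. The ribosomal median was -1.04 in impaired, -0.64 in visible platform and -0.65 in yoked rats minus cage rats. Arrays of correlation under 0.85 were 2 of the 10 impaired, 4 of the 8 visible platform and 1 of the 8 yoked arrays, and all were kept here. At an unadjusted p under 0.05, 24 of the 38 genes were lower in impaired rats, where 5.38% of all genes were, 6 in visible platform rats, where 2.54% were, and 13 in yoked rats, where 3.09% were. None of the 38 was higher in any of them by that measure, where 5.13%, 6.93% and 5.57% of all genes were in the same 3 comparisons. The mean levels ran from -3.01 to -0.09, from -1.69 to -0.05 and from -1.50 to -0.09 log2 units in the impaired, visible platform and yoked groups. In each of these groups 1 or more arrays lay inside the range of the cage arrays, -0.14 to 0.13. The direct test of the difference is unimpaired minus yoked, which uses the cage arrays only for the shared spread. There the ribosomal median was 0.26, with 1 gene lower and 0 higher at an unadjusted p under 0.05, where 2.63% and 0.897% of all genes were. No probe set of the 5244 differed between unimpaired and yoked rats after adjustment in limma (0%; smallest adjusted p = 0.485), and 194 had an unadjusted p under 0.05 (3.7%). With array quality weights the count was 3.

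Translation factors, which start and extend the protein chain, did not show the ribosomal offset: 10 of 19 lay lower, none had an unadjusted p under 0.05, and their median was 0.00. Eif4e, which binds the cap of messenger RNA, differed by 0.55 ± 0.34, but by -0.42 within animal numbers 26 to 50 and 0.47 within 76 to 100. Eif2ak3, a kinase that slows initiation under stress of the endoplasmic reticulum, differed by 0.48 ± 0.25, but its other probe set gave -0.25. The next 3 genes, outside this list, were named for their low unadjusted p. Mrpl58, a release factor of the mitochondrial ribosome, ran from 127 to 244.9 with a median of 171 in unimpaired rats and was 267.2, 226.7, 440.7, 372.9 and 239.6 in cage rats (-0.77 ± 0.23). Polr2i, a subunit of RNA polymerase II, differed by -1.13 ± 0.36, and Edf1, a transcription coactivator that also binds stalled ribosomes, by -0.90 ± 0.29.

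Subunits of oxidative phosphorylation, the mitochondrial chain that makes ATP, had a median of -0.25 over 51 genes, 38 of them lower in unimpaired rats. At an unadjusted p under 0.05, 2 were lower (3.92%, against 1.95% of all genes) and 0 higher (against 4.3%), and both belong to complex I. The median was -0.13 with the 3′ over 5′ control value as a covariate and -0.13 after quantile normalization. Ndufa3 ran from 1087 to 4368 with a median of 2645 in unimpaired rats and was 3390, 4152, 7976, 6398 and 3864 in cage rats, a difference of -0.93 ± 0.45. Ndufa6 differed by -0.65 ± 0.32. The count of 2 moved between 0 and 6 as single arrays were left out, and the mean level overlapped between groups, at -0.88 to 0.15 in unimpaired rats and -0.20 to 0.25 in cage rats. The median was -0.59 in impaired, -0.42 in visible platform and -0.57 in yoked rats minus the same cage rats.

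Genes of the proteasome and ubiquitin pathway, which tags and degrades proteins, had a median of -0.17 over 29 genes, 19 of them lower; it was -0.30 without the arrays of low correlation and ran from -0.27 to -0.07 as single arrays were left out. Psmd4, the ubiquitin receptor of the proteasome cap, ran from 1830 to 3408 with a median of 2873 in unimpaired rats and was 4019, 3262, 6116, 5794 and 4224 in cage rats. Only 1 cage array overlapped the unimpaired range, and the difference was -0.79 ± 0.31; its other probe sets gave -0.35 and -0.98. Psmd13, of the same cap, differed by -0.65 ± 0.34. Ube2b, a ubiquitin-conjugating enzyme, differed by 0.77 ± 0.43, but its other probe sets gave -0.07 and -0.16. Heat shock proteins and co-chaperones had a median of 0.17 over 26 genes and none with an unadjusted p under 0.05 by its brightest probe set; the second probe set of Hspa4, an HSP110 chaperone, gave 1.06 ± 0.34. Enzymes against oxidants were divided, with 13 of 28 higher and a median of -0.05. Prdx3, the mitochondrial peroxiredoxin, ran from 549.8 to 1572 with a median of 1083 in unimpaired rats and was 505.5, 831.2, 600.2, 265.3 and 484.4 in cage rats (1.03 ± 0.38), and its other probe set gave 1.27. Catalase, Cat, differed by 0.80 ± 0.40, but its other probe set by -0.64.

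Both aspartate aminotransferases, which link glutamate to the citric acid cycle and shuttle reducing equivalents into mitochondria, lay higher in unimpaired rats. Got2, the mitochondrial form, ran from 1306 to 4798 with a median of 2782 in unimpaired rats and was 2072, 950.2, 738.4, 832.6 and 2866 in cage rats. The 2 high cage arrays, animals 35 and 100, lay inside the unimpaired range and the other 3 below it, and the difference was 1.14 ± 0.34 (adjusted p = 0.407 in limma). Got1, the cytosolic form, ran from 3162 to 5583 with a median of 4577 in unimpaired rats and was 3379, 2048, 1880, 2137 and 3741 in cage rats. Its difference was 0.86 ± 0.40 with all arrays and 0.82 without the arrays of low correlation, where it passed the adjusted test (adjusted p = 0.029 in limma). Got1 is named because it passed under that setting, a choice made after its values were seen. Glycolysis, lactate and glucose transport genes had a median of 0.03 over 25 genes.

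Lipid genes held single genes on both sides of a median of 0.04 over 25 genes. Fdps, the enzyme that makes farnesyl diphosphate on the way to cholesterol and to protein prenylation, ran from 59.6 to 284.6 with a median of 123.2 in unimpaired rats and was 410.3, 304.9, 832.7, 562.2 and 155.5 in cage rats. All unimpaired arrays lay below 4 of the 5 cage arrays. The difference was -1.46 ± 0.39 (adjusted p = 0.407 in limma), with -0.68 and -0.84 from its other probe sets, and -0.59 in impaired, -0.85 in visible platform and -1.77 in yoked rats minus the same cage rats. Apoc1, an apolipoprotein, ran from 589 to 1592 with a median of 1011 in unimpaired rats and was 1717, 1748, 2186, 1377 and 1935 in cage rats (-0.84 ± 0.28). Both passed the adjusted test with array quality weights. Acat2, which condenses acetyl-CoA at the head of the same pathway, differed by 0.74 ± 0.32, and Acsl1, which activates long-chain fatty acids, by 0.88 ± 0.25, although its other probe sets gave 0.65 and -0.44. G0s2, an inhibitor of triglyceride breakdown, differed by -1.09 ± 0.34.

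**Figure D3:**
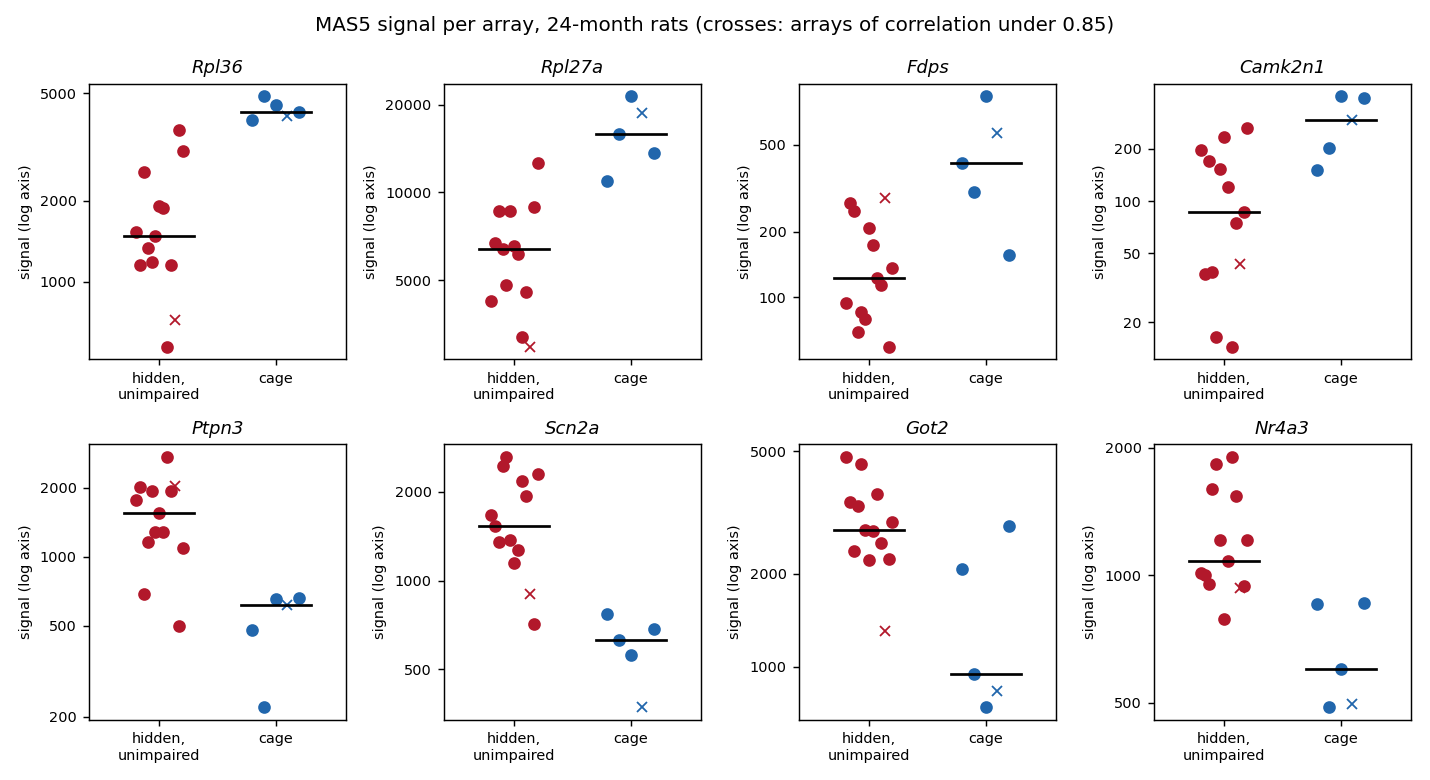
MAS5 signal (log axis) of 8 genes on each of the 13 unimpaired and 5 cage arrays; points are animals, crosses the arrays of correlation under 0.85 and black lines the medians. Rpl36 has no overlap between groups, Rpl27a, Fdps and Camk2n1 lie mostly lower and Ptpn3, Scn2a, Got2 and Nr4a3 mostly higher in unimpaired rats.

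Immediate early genes were examined because they report recent neuronal activity, here 24 h after the last swim. Arc, which encodes a protein that moves AMPA receptors out of synapses, ran from 1521 to 3630 with a median of 2579 in unimpaired rats and was 1871, 1882, 2907, 3241 and 3160 in cage rats. The cage arrays covered most of the unimpaired range, and the difference was -0.03, with a 95% interval of -0.78 to 0.72. Fos ran from 342.4 to 1392 with a median of 719.4 in unimpaired rats and from 551.3 to 700.7 in cage rats, a difference of 0.09 (-0.64 to 0.83). Its other probe set gave -0.37. Egr1, a zinc-finger transcription factor, differed by -0.15 (-1.08 to 0.78), and its 3 other probe sets gave 0.83, 0.02 and -0.32. Bdnf, the neurotrophin, differed by 0.11 (-0.61 to 0.83), and its other probe sets gave -0.17, 0.30 and 0.15. These intervals span values from well below to well above the cage level, so they do not show that the genes were equal.

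Nr4a3, a nuclear receptor without a known ligand in the cell, had the smallest unadjusted p of the immediate early transcription factors. It ran from 789 to 1902 with a median of 1080 in unimpaired rats and was 856.3, 487.6, 599.7, 495.2 and 857.4 in cage rats. The lowest unimpaired array lay below the 2 highest cage arrays, and the difference was 0.88 ± 0.32 (adjusted p = 0.511 in limma); its other probe set gave 0.69. It was 1 of 19 such genes with an unadjusted p under 0.05 (5.26%), close to the 4.3% of all genes that were higher by that measure. Without the arrays of low correlation, 3 of the 19 were higher by that measure, where 9.22% of all genes were. Nr4a1, a relative of Nr4a3, differed by 0.53 ± 0.32 and Klf10 by 0.78 ± 0.48. Within animal numbers 26 to 50 and 76 to 100, Nr4a1 differed by 1.06 and -0.35, and Klf10 by 0.15 and 0.11. The list as a whole had a median of -0.09, which ran from -0.14 to 0.08 as single arrays were left out and was 0.07 with array quality weights. Unimpaired minus yoked was 0.35 for Nr4a3, with an unadjusted p of 0.21 in limma.

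Effector genes, whose products act at the synapse or in the cell body after activity, had a median of 0.12 over 21 genes, 14 of them higher. That median was 0.24 without the arrays of low correlation and 0.01 with array quality weights, and ran from 0.07 to 0.29 as single arrays were left out. Sgk1, a kinase that glucocorticoids and activity induce, ran from 369.4 to 1018 with a median of 556.4 in unimpaired rats and was 467.1, 238.4, 358.5, 101.4 and 588.2 in cage rats (0.89 ± 0.34). Its difference was 0.58 without the arrays of low correlation. Nrn1, which encodes neuritin, a membrane-anchored protein of neurite growth, differed by 0.65 ± 0.29. Cage animals 98 and 99 had 914.2 and 1088, below every unimpaired array, and the other 3 cage arrays lay inside the unimpaired range. Nrn1 differed by -0.11 within animal numbers 26 to 50 and by 0.82 within 76 to 100. Of the 11 neurotrophin genes and their receptors 10 lay higher, with a median of 0.21. That count was 6 without the arrays of low correlation, with a median of 0.12. Ntf3, neurotrophin-3, differed by 0.59 ± 0.29. The neurotrophin median was 0.58 in impaired, 0.46 in visible platform and 0.47 in yoked rats minus the same cage rats. The insulin-like growth factor and insulin system had a median of -0.23 over 16 genes, and -0.10 without those arrays, with no member at an unadjusted p under 0.05.

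Corticosteroid receptors and response genes were examined because swimming in a maze is stressful. Their median was 0.04 over 13 genes, and at an unadjusted p under 0.05 Sgk1 was higher (0.89 ± 0.34) and Nfkbia lower (-0.89 ± 0.42). That is 1 of 13 each way (7.69%), where 4.3% of all genes were higher and 1.95% lower. Without the arrays of low correlation the differences were 0.58 for Sgk1 and -0.65 for Nfkbia. Nr3c1, the glucocorticoid receptor, ran from 489.2 to 905.3 with a median of 653 in unimpaired rats and was 429.9, 311, 737.9, 1189 and 920.7 in cage rats. The difference was 0.04 (95% interval -0.51 to 0.60), with the cage arrays wider apart than the unimpaired ones. Nfkbia is the inhibitor of NF-kappa-B that glucocorticoids induce. Mt3, a brain metallothionein, differed by -0.93 ± 0.47.

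**Figure D4:**
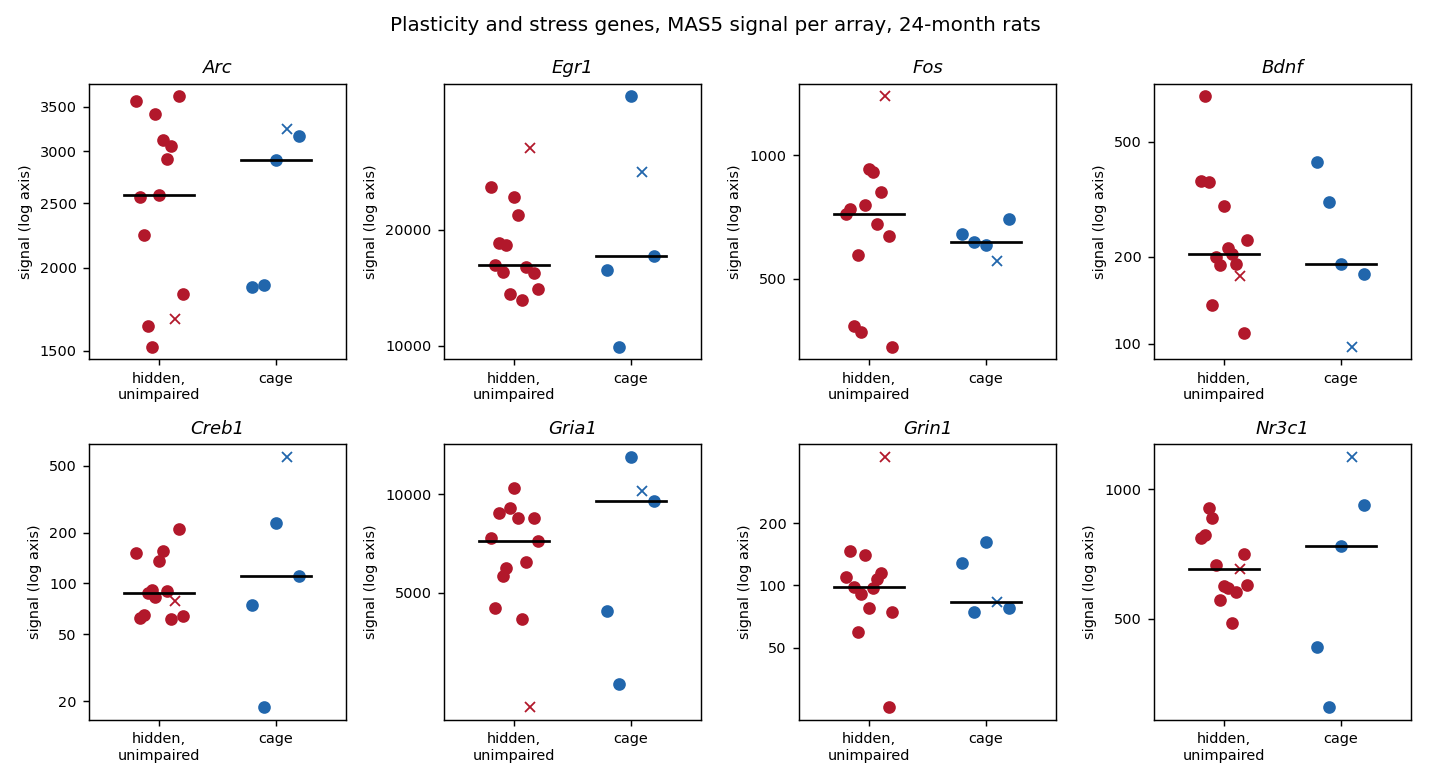
MAS5 signal (log axis) of 8 genes of plasticity and of the stress response on each of the 13 unimpaired and 5 cage arrays; points are animals, crosses the arrays of correlation under 0.85 and black lines the medians. The groups overlap for all 8 genes, and for Arc the 5 cage arrays, 1871 to 3241, lie within the unimpaired range.

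By their brightest probe sets, receptors for glutamate and GABA showed no member at an unadjusted p under 0.05, where 4.3% of all genes were higher and 1.95% lower. Gria2, an AMPA receptor subunit, differed by 0.39 ± 0.41 with that probe set and by 0.89 ± 0.39 with its other one. AMPA, NMDA and kainate receptor subunits had a median of -0.03 over 14 genes. Gria1, an AMPA receptor subunit, differed by -0.10 (95% interval -1.57 to 1.36), and Grin1, the obligatory NMDA receptor subunit, by 0.01 (-0.88 to 0.91). The other probe sets of Gria1 gave 0.11 ± 0.32 and -1.10 ± 0.72, and that of Grin1 gave -0.37 ± 0.48. Gria1 ran from 2235 to 10458 in unimpaired rats and was 4407, 2624, 13030, 10254 and 9554 in cage rats, so cage animals 35 and 36 were low and animals 98, 99 and 100 high. Metabotropic glutamate receptors had a median of 0.11 over 5 genes, which was -0.03 without the arrays of low correlation, and GABA and glycine receptor subunits 0.05 over 12. Gabra5, the alpha-5 subunit that mediates tonic inhibition in CA1, differed by 0.65 ± 0.36, but by -0.53 within animal numbers 26 to 50 and 0.97 within 76 to 100. Monoamine, histamine and acetylcholine receptors had a median of -0.10 over 29 genes, 20 of them lower. Adra2c, an inhibitory noradrenaline receptor, differed by -0.74 ± 0.31, and Chrna3, a nicotinic receptor subunit, by 0.88 ± 0.49.

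CaM kinases, calcineurin and calcium sensors, which read calcium in the spine, had a median of -0.09 over 22 genes. Camk2n1, an endogenous inhibitor of CaM kinase II, ran from 14.5 to 262.7 with a median of 86.5 in unimpaired rats and was 151.2, 201.4, 402.9, 295.3 and 392.9 in cage rats. Cage animals 35 and 36 lay inside the unimpaired range and the other 3 above it. The difference was -1.53 ± 0.55, but -0.09 within animal numbers 26 to 50 and -1.67 within 76 to 100. Camk2g, the gamma subunit, ran from 183.3 to 577.6 with a median of 328.9 in unimpaired rats and was 560.6, 635.9, 671.5, 663.5 and 606.6 in cage rats, with overlap at 1 cage array (-0.82 ± 0.31). These 2 were the members lower at an unadjusted p under 0.05 (9.09%, against 1.95% of all genes), and neither passed with array quality weights. That count was 2 without the arrays of low correlation and 0 with blocks of animal numbers in the fit. The probe set of Camk2a, the alpha subunit, lay below the limit on low signal.

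Cyclic AMP and CREB signalling had a median of 0.04 over 21 genes and no member at an unadjusted p under 0.05; Creb1 itself differed by -0.33 (95% interval -1.28 to 0.61). PKC and MAP kinase genes had a median of -0.04 over 19. Map3k12, the dual leucine zipper kinase of the axon injury response, ran from 133.9 to 745.8 with a median of 555.3 in unimpaired rats and was 788.4, 1173, 748.4, 1010 and 817.2 in cage rats. It was 1 of the 5 genes without overlap, although cage animal 98 lay just above the highest unimpaired array, and it differed by -0.81 ± 0.38. The last of those 5 was the histone gene Hist1h2af (-1.04 ± 0.43), whose sequence is shared by many histone copies.

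Voltage-gated channels had a median of 0.15 over 35 genes, which was -0.02 without the arrays of low correlation. Scn2a, the sodium channel of the axon initial segment, ran from 711.3 to 2623 with a median of 1531 in unimpaired rats and was 767.7, 626.7, 557.7, 372 and 682.8 in cage rats. Only cage animal 35 reached the unimpaired range. The difference was 1.37 ± 0.39 (adjusted p = 0.407 in limma), and it passed the adjusted test when the 18 arrays were fitted alone and with array quality weights. It was 0.66 in impaired, 0.33 in visible platform and 1.02 in yoked rats minus the same cage rats, and unimpaired minus yoked was 0.36 with an unadjusted p of 0.29 in limma. Cacna1e, the R-type calcium channel, differed by 0.94 ± 0.45, and Kcnc2, a fast potassium channel of interneurons, by 0.83 ± 0.43. Within animal numbers 26 to 50 and 76 to 100, Cacna1e differed by -0.16 and 2.24, and Kcnc2 by 0.36 and 0.85.

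Synaptic vesicle and fusion genes had a median of 0.15 over 28 genes and no member at an unadjusted p under 0.05. Snap25, a core fusion protein, ran from 1178 to 3132 in unimpaired rats and was 2463, 2965, 499.4, 440 and 1280 in cage rats, with cage animals 98 and 99 far below the others. Sh3gl3, endophilin A3, which shapes vesicle membranes, was 1 of only 3 genes, 0.0928% of those tested, for which every unimpaired array lay above every cage array. It ran from 693.7 to 1375 with a median of 954.7 in unimpaired rats and was 622.8, 554.6, 352.5, 564 and 529.8 in cage rats (0.84 ± 0.25). The other 2 were Rabgap1l (0.94 ± 0.38), which acts on Rab GTPases, and Tprg1l (0.62 ± 0.36), a presynaptic protein also called mover. Postsynaptic scaffold and spine genes had a median of 0.00 over 23. The adhesion gene Nrxn3 differed by 0.68 ± 0.27, and the adhesion gene Ncam1 by -1.12 ± 0.39, although its other probe set gave 0.23. Cytoskeletal genes had a median of 0.06 over 27; Tmsb4x, which binds free actin, differed by -0.94 ± 0.36, and Ina, a neurofilament protein, ran from 1335 to 4803 in unimpaired rats and from 3081 to 8812 in cage rats, with a difference of 0.02 from its other probe set.

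The remaining genes with the smallest unadjusted p among those higher in unimpaired rats had differences of 0.95 to 1.49 and adjusted p of 0.407 in limma. Ptpn3, a tyrosine phosphatase, ran from 500.6 to 2728 with a median of 1559 in unimpaired rats and was 480.5, 220.2, 656.6, 613.1 and 662.4 in cage rats, and all but 1 unimpaired array lay above all of them. Its difference was 1.49 ± 0.41, and its adjusted p without the arrays of low correlation was 0.027 in limma; its other probe set gave 0.51. Mllt10, a partner of the histone methyltransferase DOT1L, differed by 1.13 ± 0.30, and Cipc, a repressor of the circadian CLOCK protein, by 0.95 ± 0.27. Akap11, which anchors protein kinase A, differed by 1.10 ± 0.34, Crabp1, which binds retinoic acid, by 1.15 ± 0.34, and Glg1, a Golgi glycoprotein, by 1.18 ± 0.33. The DNA repair enzyme gene Parp1 (1.04 ± 0.32) and Hrk (1.37 ± 0.42), whose product promotes cell death, each had other probe sets of the opposite sign. Among those lower, Ppp1r2, an inhibitor of protein phosphatase 1, differed by -0.87 ± 0.29, Plekho1, a signalling adaptor, by -0.84 ± 0.28, and Mpst, a sulphur transferase, by -1.29 ± 0.45. Plekho1 differed by 0.19 within animal numbers 26 to 50 and by -1.03 within 76 to 100, while Ppp1r2 and Mpst stayed lower in both. Over these 24 genes of smallest p, 12 in each direction, the adjusted p in limma ran from 0.407 to 0.463, and 12 passed with array quality weights.

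Without the arrays of correlation under 0.85, which left 12 unimpaired and 4 cage arrays, 11 probe sets passed the adjusted test (0.21% of those tested; 9 higher and 2 lower), and they are named here because they passed there, after their values were seen. Besides Ptpn3 and Got1, those higher were Sfpq (1.43) and Dhx9 (1.17), which bind RNA in the nucleus, Med1 (1.64), a Mediator subunit, Rdh10 (1.51), which oxidises retinol, Hps3 (0.97), which serves lysosome-related organelles, Ginm1 (1.86) and 1 unnamed probe set (1.04). Arpp21, a phosphoprotein regulated by cyclic AMP in neurons, was lower by -1.59 ± 0.36 with all arrays. Its probe set ran from 156.1 to 497.9 with a median of 293 in unimpaired rats and was 635.1, 2363, 647.9, 878.6 and 537.7 in cage rats, with no overlap. It is not counted among the genes without overlap because a brighter probe set from the same sequence stands for this gene and gave -0.05, so the 2 probe sets disagree. The other lower probe set, unnamed, ran from 14.8 to 221 in unimpaired rats and was 168, 305.9, 373.2, 260.2 and 257.1 in cage rats.

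Markers of cell types were set beside these differences. CA1 pyramidal markers had a median of 0.14 over 12 genes, with 8 higher, and their summed signal ran from 60230 to 88057 in unimpaired rats and from 49776 to 122620 in cage rats. Neighbouring field markers, of dentate gyrus and CA3, had a median of 0.18 over 9 genes and summed to 3883 to 8397 in unimpaired rats and 3741 to 4538 in cage rats. Interneuron markers had a median of 0.05 over 19 genes and summed to 14084 to 20676 in unimpaired rats and 12743 to 18705 in cage rats. Cnr1, the cannabinoid receptor of cholecystokinin interneurons, differed by 0.93 ± 0.44. Man1a1, a Golgi mannosidase on the CA1 list, differed by 0.92 ± 0.33.

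Astrocyte markers lay lower for 18 of 24 genes (75%, where 45.8% of all genes lay lower), with a median of -0.10. The other 6 lay higher, the highest by 0.67, and without the arrays of low correlation 15 lay lower. The markers summed to 124440 to 202890 in unimpaired rats and 150100 to 319990 in cage rats. The median ran from -0.16 to -0.001 as single arrays were left out. It was -0.07 within animal numbers 26 to 50 and 0.03 within 76 to 100. Sparc, a matrix glycoprotein of astrocytes and vessels, ran from 5296 to 17328 with a median of 11292 in unimpaired rats and was 13093, 21439, 36231, 38377 and 12001 in cage rats (-1.05 ± 0.46). The other probe sets of Sparc gave -0.22 and -0.57. Dbi, the source of peptides that bind mitochondrial and GABA receptors, differed by -0.82 ± 0.34. Blood markers were examined as well. Hbb, a beta globin gene, ran from 628.3 to 6062 with a median of 1864 in unimpaired rats and was 7707, 10742, 1792, 12614 and 5364 in cage rats, so that 3 cage arrays lay above all unimpaired ones. It differed by -1.74 ± 0.73, and Hbb-b1, whose near-identical sequence can share its signal, by -1.23 ± 0.49. Globin genes mark red cells left in the punch. The endothelial, mural and blood list had a median of -0.08 over 21 genes and summed to 7254 to 13430 in unimpaired rats and 9195 to 24599 in cage rats. The part of these cell types in the ribosomal and other differences was not tested.

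Oligodendrocyte and myelin markers had a median of -0.04 over 18 genes and summed to 18654 to 34882 in unimpaired rats and 19480 to 40257 in cage rats. Ptgds, prostaglandin D synthase, made by oligodendrocytes and meninges, ran from 618.5 to 1689 with a median of 1018 in unimpaired rats and was 2177, 2420, 1538, 1997 and 1924 in cage rats, with overlap at 1 cage array (-0.93 ± 0.37). Mbp, myelin basic protein, ran from 1995 to 7846 in unimpaired rats but was 13598, 9608, 368.1, 863.3 and 3408 in cage rats, so that cage arrays lay on both sides of the whole unimpaired range (0.77 ± 0.78). Microglia and complement markers had a median of 0.04 over 20 genes, and MHC class I and interferon genes 0.00 over 17, each with no member at an unadjusted p under 0.05. Choroid plexus and ventricle markers had a median of -0.08 over 6 genes.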

How the data were processed

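The deposited values are MAS5 signal intensity per probe set, which the authors made from 1 array per animal, per the submitters' processing notes; no MAS5 version is given in the sources used here. Each array's mean after trimming 2% at each side lay at 500.09 to 500.98, so arrays had been scaled alike; a scaled signal cannot show a change in total RNA. Symbols came from the platform annotation: 7018 probe sets had 1 symbol, 308 several and 1426 that were not controls none, and 6994 symbols were updated through their RefSeq gene ID, 24 kept.

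A filter took out the dimmest 40% of probe sets by mean signal, leaving 5244 (4284 named by 1 symbol) for 3233 genes. log2(signal + 15) was fitted with limma 3.58.1 (R 4.3.3; lmFit, eBayes with trend) over the 44 aged arrays with 1 mean per group; tests were two-sided with Benjamini-Hochberg adjustment over all probe sets and a threshold of 0.05. The 16 arrays of 24-month hidden platform rats with a letter that the labels do not explain, and the 19 of 3-month rats, were not in this fit. For each gene the probe set of highest mean signal was used. Named genes were the 12 of smallest unadjusted p in each direction, since none passed, the 3 of smallest p in each of 33 gene lists, and a short fixed list; of that list Camk2a lay below the signal limit and Gfap had no probe set named here. The groups, gene lists and fixed genes were chosen with earlier results of these data known. Exact permutation tests used Python 3.11.15 and scipy 1.17.1. No array pair correlated above 0.976 (Spearman), so none was counted as a duplicate. The fit was tested on simulated data. Alternatives were 14 settings, among them other pseudocounts, filters, scalings, arrays, weights and covariates. The number of arrays limits precision: the median standard error of a log2 difference was 0.38.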

Additional observations from a re-analysis of the deposited data

Results flagged for a closer look

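Among the 119 named genes, 12 had 1 of the 5 cage arrays far from the other 4 by Dixon's test (gap over range above 0.71), which chance gives in about 1 group in 20. The 13 unimpaired arrays were not examined in this way. Cage animal 99, an array of low correlation, was the distant one for 7 genes. It was low for Mpst (83.8, the others 255.1 to 353), Ngfr (141.4, the others 786.3 to 1512), Man1a1 (167.4, the others 393.8 to 459.5) and Ctsb (1014, the others 1721 to 2095). It was high for Grm6 (313.9, the others 108.7 to 136.4), Gabra4 (524.1, the others 157.1 to 193.2) and Igfbp2 (578.1, the others 184.1 to 231.4). Cage animal 98 was low for Sh3gl3 (352.5, the others 529.8 to 622.8), Klf10 (201.1, the others 532.4 to 751.8) and Gad1 (1311, the others 1893 to 2120), and high for Map2k6 (1511, the others 577.8 to 721.2). Cage animal 35 was high for Kcnc2 (459.9, the others 236.1 to 285.3).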

How the results depend on the processing

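The count of probe sets called in unimpaired minus cage was 0 with all aged arrays in limma, and 0 when each of the 18 arrays was left out in turn. It was 88 with array quality weights (54 higher, 34 lower), 11 without the arrays of correlation under 0.85 (9 higher, 2 lower) and 4 with only the 18 arrays (1 higher, 3 lower), and 0 under the other settings run over all animal numbers; all 11 and all 4 were among the 88, and 2 of the 4 were among the 11. Unimpaired minus yoked gave 0, except 3 with array quality weights, and 0 throughout when single arrays were left out. Of the named genes' differences, 2116 of 2142 kept their sign when 1 array was left out and 1690 of 1756 under the other settings. Of the list medians, 546 of 594 and 436 of 495 did. Of 56 other probe sets of named genes, 33 had the sign of the one used. The median of all probe sets was 0.03, and 0.00 after quantile normalization or median centring. The cause of these changes was not tested. No paired analysis was possible because each animal number stands for 1 animal in 1 group. The labels do not say how rats were assigned to days or arrays, and 5 cage arrays, 1 of them of low correlation, limit every comparison with cage.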

Other observations

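Some genes differed between their own probe sets by more than the standard errors of either. Bok, a gene of cell death on the list for neighbouring fields, gave 0.17 ± 0.23 with its brightest probe set and -1.20 ± 0.37 with the other. Hspa4, a heat shock protein of the HSP110 family, gave 0.57 ± 0.35 and 1.06 ± 0.34, and Egr1 -0.15 ± 0.46 and 0.83 ± 0.43 for its brightest 2. These values are unimpaired minus cage in log2(signal + 15), with standard errors from limma.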
